A study of Mus musculus with 6 samples.

Results

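The genes described are the cell-surface and endosomal Toll-like receptors Tlr1, Tlr2, Tlr3, Tlr4, Tlr7 and Tlr9, the co-receptor gene Cd14, the adaptor genes Myd88 and Ticam1 and the kinase gene Irak4. They were chosen by name, and all 10 were found among the 26776 genes of the deposited table. The samples were bulk RNA of LT-HSCs, the long-term stem cells of the bone marrow that maintain blood formation, from Trim47+/eGFP mice. In these mice, per the genotype name, one Trim47 allele carries the green fluorescent reporter eGFP, and both groups share this genotype. Cells with high reporter fluorescence (eGFPhi, 3 libraries) were compared with cells with low fluorescence (eGFPlo, 3 libraries), which asks how transcripts differ with the activity of the Trim47 reporter. The labels used here state neither the age and number of mice, nor the sorting gate, nor whether each library had its own animals. The p-values therefore rest on the spread among 3 libraries a group, which may be technical.

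Toll-like receptors recognise conserved microbial molecules. Receptors at the cell surface bind lipopeptides and lipopolysaccharide, whereas those in endosomes bind nucleic acids. Ligand binding joins receptor tails to an adaptor: MYD88 serves all of these receptors except TLR3 and recruits the kinase IRAK4, and TRIF, the product of Ticam1, serves TLR3 and TLR4. The pathway ends in NF-kB and interferon regulatory factors. Haematopoietic stem and progenitor cells are known to carry some of these receptors and to respond to their ligands.

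To show the DNA at the start of members that differed between the groups, the RefSeq promoter windows of Tlr2 and Ticam1, which were higher in eGFPhi, and of Tlr9, which was lower, were read on build GRCm38.p6. A window runs from 250 bases before the annotated start to 50 after it. Of the 10 members, 7 had a window, and Tlr4, Tlr7 and Cd14 had none. Among the members called lower, only Tlr9 could thus be shown. It passed in 4 of 14 alternative settings of the analysis, which are given below. Only the stretch ahead of the first annotated exon base is printed, which is chr3:83841768-83841858 on the minus strand for Tlr2, chr17:56276787-56277017 on the minus strand for Ticam1 and chr9:106222348-106222597 on the plus strand for Tlr9. Capitals mark motif matches, on either strand, that lie wholly inside the printed stretch.
Tlr2: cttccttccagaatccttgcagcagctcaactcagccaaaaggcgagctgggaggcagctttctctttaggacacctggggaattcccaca
Ticam1: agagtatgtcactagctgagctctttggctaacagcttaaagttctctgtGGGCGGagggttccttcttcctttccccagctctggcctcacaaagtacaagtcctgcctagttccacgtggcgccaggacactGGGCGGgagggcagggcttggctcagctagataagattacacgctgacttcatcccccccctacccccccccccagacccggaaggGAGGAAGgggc
Tlr9: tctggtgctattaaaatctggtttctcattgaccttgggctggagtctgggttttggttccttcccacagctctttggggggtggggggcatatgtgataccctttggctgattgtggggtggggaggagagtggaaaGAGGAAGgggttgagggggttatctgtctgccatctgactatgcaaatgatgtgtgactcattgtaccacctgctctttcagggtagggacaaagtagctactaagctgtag
The motifs searched were an interferon-stimulated response element and an NF-kB site, each of 10 letters, a PU.1 site as GAGGAAG, the GC box as GGGCGG and the TATA box as TATAAA. They are held by 3.44%, 0.411%, 13.6%, 35.7% and 13.6%, in that order, of all 32851 windows of this length. The Ticam1 stretch holds a PU.1 match and 2 GC boxes, and one more GC box at bases -23 to -18 from the RefSeq start runs past its end. The Tlr9 stretch holds a PU.1 match, and its window another at bases 11 to 17. The whole Tlr2 window holds 2 GC boxes, both inside the annotated exon and so not printed. The printed Tlr2 stretch holds no match to the exact letters searched, and variants of the NF-kB site were not looked for. The Tlr3 window lies in annotated exons and is not printed. It holds an NF-kB match at bases -211 to -202 from the RefSeq start and a GC box at bases 37 to 42. The window of Myd88, whose transcript did not pass the threshold, holds an interferon element match at bases -40 to -31, a GC box and overlapping TATA box matches on both strands. Matches to different motifs did not overlap each other in these windows. These matches are a description of the letters and not of bound sites.

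Libraries held 11221070 to 26058391 counts. Levels are in CPM, which relates counts to TMM-adjusted library sizes, means are given ± SD over n = 3 libraries per group, and differences are log2 fold changes of eGFPhi over eGFPlo with their standard error (SE) from edgeR quasi-likelihood tests, with Benjamini-Hochberg adjusted p over all tested genes and a threshold of 0.05. Trim47, the reporter's own gene, had 21.6, 26.2 and 23.3 CPM in eGFPhi and 7.28, 8.18 and 8.92 CPM in eGFPlo, as the sort on its reporter requires. Trim47 shares 225 exon bases on the same strand with Trim65, so reads there cannot be assigned by strand. All 10 haematopoietic stem cell markers checked were detected in both groups and higher in eGFPhi, at summed levels of 2511 to 2716 CPM in eGFPhi and 1196 to 1233 CPM in eGFPlo. Markers of granulocyte-monocyte progenitors summed to 385 to 393 CPM in eGFPhi and 5431 to 5526 CPM in eGFPlo, with 8 of 8 lower in eGFPhi and none at 0. In bulk RNA, fewer cells of a type and less RNA per cell cannot be told apart.

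Receptors and adaptors did not move as a block. Tlr2, Tlr3 and Ticam1 were higher in eGFPhi, Tlr7, Tlr9 and Cd14 were lower, and Tlr4, Myd88 and Irak4 did not pass the threshold. Of the 10 members 9 passed the filter on low counts and were tested, and 6 of these (66.7%) passed the threshold, against 64.0% of all 18081 genes tested. The share of members called was thus near that of all genes. By direction, 3 were higher, where 32.3% of all genes were, and 3 were lower, where 31.7% were. The median log2 fold change of the 9 was -0.09, and that of all tested genes 0.00. The 3 values of one group lay wholly on one side of the other for 6 of the 9, against 69.8% of all genes. For each of these 6 an exact two-sided permutation test over the 6 libraries gave p = 0.1, the smallest that 3 libraries against 3 allow.

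**Figure D1:**
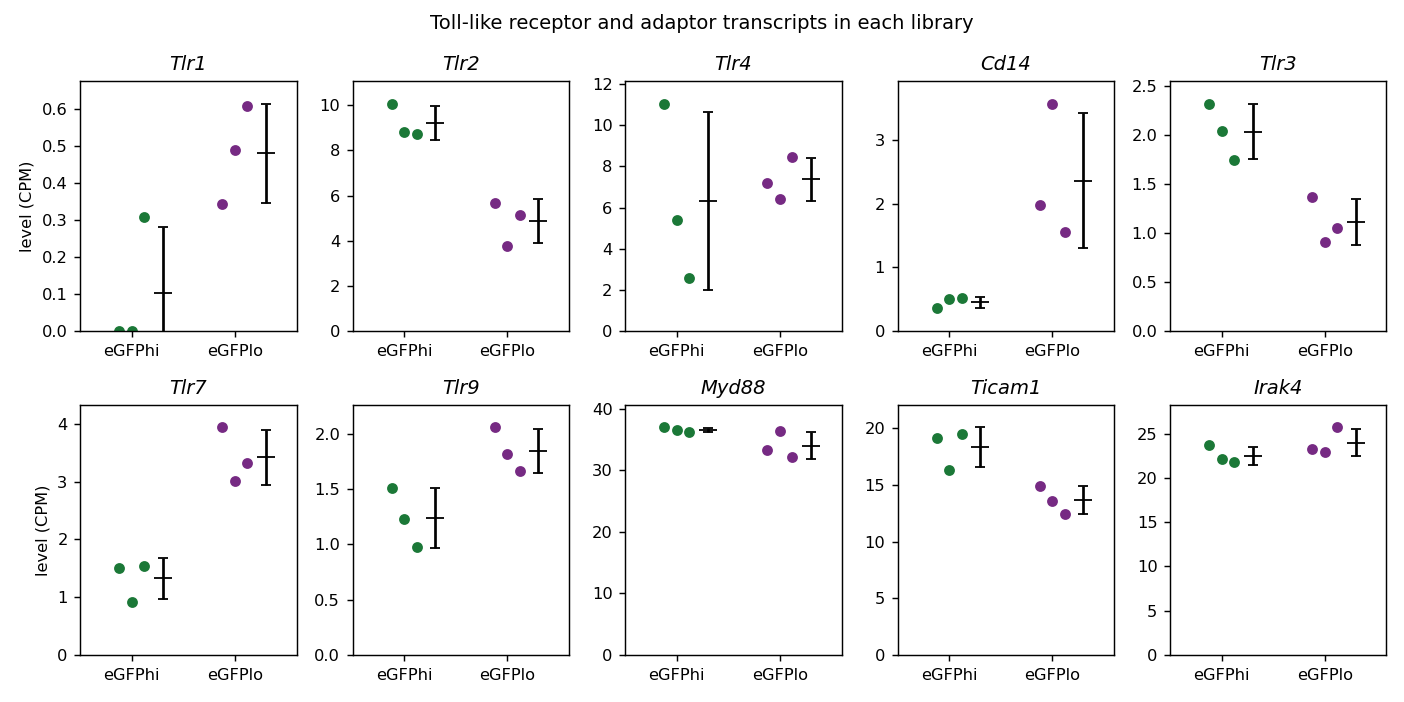
Level in CPM of each member in every library, with eGFPhi in green and eGFPlo in purple and each panel's axis starting at 0. Bars are mean ± SD over 3 libraries. The 3 eGFPhi points lie above the eGFPlo points for Tlr2, Tlr3 and Ticam1 and below them for Tlr1, Cd14, Tlr7 and Tlr9, while Tlr4 ranges from 2.57 to 11.0 CPM within eGFPhi.

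Among receptors of the cell surface, Tlr2 (ENSMUSG00000027995, chromosome 3, 83836272 to 83841767, minus strand), which senses bacterial lipoproteins, was higher in eGFPhi. It had 10.1, 8.80 and 8.73 CPM in eGFPhi, against 5.65, 3.77 and 5.15 CPM in eGFPlo. All eGFPhi libraries exceeded all eGFPlo libraries. Tlr2 rose 1.89-fold, with a log2 fold change of 0.92 (SE 0.16, edgeR adjusted p = 0.00158), and it passed in 15 of 15 alternative settings.

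Tlr1 (ENSMUSG00000044827, chromosome 5, 64924679 to 64933563), which pairs with TLR2 to bind triacylated lipopeptides, was close to undetected. It had 0, 0 and 6 counts in the eGFPhi libraries, against 4, 7 and 11 counts in the eGFPlo libraries, and did not pass the filter. The ratio of the pooled levels, eGFPhi over eGFPlo, was 0.212, with an exact 95% interval of 0.0702 to 0.538 that covers counting error only, and without the filter edgeR gave an adjusted p of 0.0917. Tlr1 transcripts share 454 of 3332 distinct 50-base stretches with those of Tlr6, the other partner of TLR2, so reads may have been divided between them. Tlr6 had 2.40, 2.77 and 2.47 CPM in eGFPhi and 3.94, 2.87 and 2.66 CPM in eGFPlo and did not pass the threshold (log2 fold change -0.28, SE 0.19, edgeR adjusted p = 0.234). Whether the changes of Tlr2 and Tlr6 differ from each other was not tested.

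Tlr4 (ENSMUSG00000039005, chromosome 4, 66827584 to 66930284, plus strand) encodes the receptor for bacterial lipopolysaccharide. Its level was 11.0, 5.38 and 2.57 CPM in eGFPhi, against 7.20, 6.43 and 8.47 CPM in eGFPlo. The eGFPhi values enclosed those of eGFPlo on both sides, and the log2 fold change of -0.30 (SE 0.44) did not pass (edgeR adjusted p = 0.581). The counts behind the eGFPhi values were 124, 140 and 50, and the highest library stood 4.30-fold above the lowest. Of 4109 other tested genes within 2-fold of this eGFPhi level, 32 (0.779%) had a ratio as wide, counting those with a library at 0, and their median was 1.21; this comparison was chosen after the values were seen. In eGFPlo the same ratio for Tlr4 was 1.32. Without eGFPhi replicate 1 the log2 fold change was -0.86 and passed (edgeR adjusted p = 0.0487), and without eGFPhi replicate 3 it was 0.10. Summed monocyte and macrophage markers were 121, 126 and 134 CPM in the same eGFPhi libraries. The part of such cells in the Tlr4 spread was not tested.

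**Figure D2:**
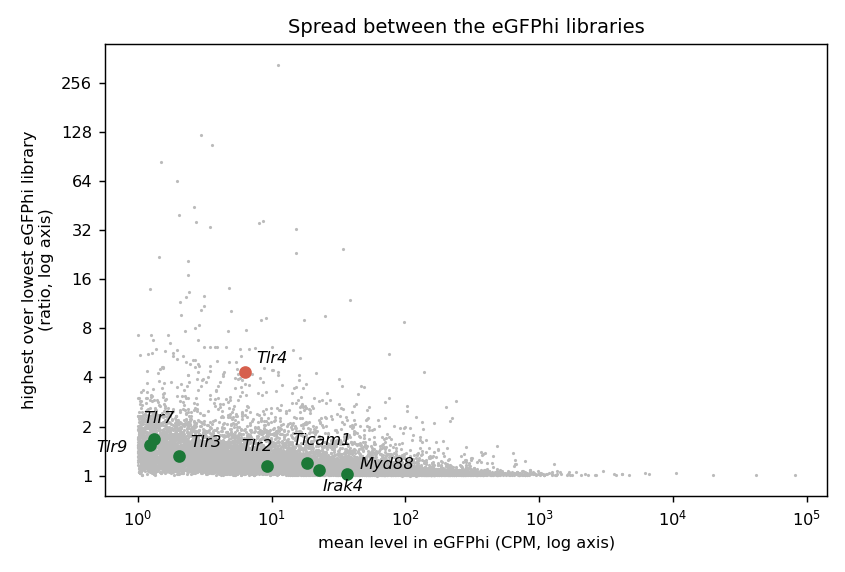
Ratio of the highest to the lowest eGFPhi library (y, log axis) against the mean level in eGFPhi in CPM (x, log axis) for tested genes with a mean of at least 1 CPM in eGFPhi and no eGFPhi library at 0 (grey), with members in green and Tlr4 in red. Tlr4, at 4.30, lies above the bulk of genes of its level, and the other members shown lie within it.

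Cd14 (ENSMUSG00000051439, chromosome 18, 36725067 to 36726798, minus strand) encodes a co-receptor that hands lipopolysaccharide to TLR4 and is abundant on monocytes. It had 0.356, 0.499 and 0.514 CPM in eGFPhi, against 1.97, 3.56 and 1.55 CPM in eGFPlo. Counts were 4, 13 and 10 in eGFPhi and 23, 51 and 28 in eGFPlo, and the groups did not overlap. Cd14 was 4.90-fold lower, the widest fold among the tested members (log2 fold change -2.29, SE 0.39, edgeR adjusted p = 0.00143). The filter on low counts kept Cd14 through its eGFPlo libraries alone, so its being tested depended on the group where it was high. Without the filter its log2 fold change was -2.28 (edgeR adjusted p = 0.00144). Monocyte and macrophage markers were mostly lower as well. Of 8 measured, 6 were lower and 1 higher, where 31.7% of all tested genes were lower and 32.3% higher. Their median log2 fold change was -1.53, and their summed levels were 121 to 134 CPM in eGFPhi and 162 to 170 CPM in eGFPlo. No marker was at 0 in all libraries of a group. The part of such cells in the Cd14 difference was not tested. The log2 ratio of Cd14 to Tlr4 within each library averaged -3.57 ± 1.32 in eGFPhi and -1.72 ± 0.81 in eGFPlo (SD, n = 3 each), and the groups overlapped (exact two-sided permutation p = 0.2, and 0.2 adjusted over 3 ratios).

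Receptors of endosomes differed in opposite directions. Tlr3 (ENSMUSG00000031639, chromosome 8, 45395665 to 45411080, minus strand), which binds double-stranded RNA, had 2.31, 2.04 and 1.75 CPM in eGFPhi and 1.37, 0.909 and 1.05 CPM in eGFPlo. Every eGFPhi library was above every eGFPlo library. Tlr3 rose 1.83-fold (log2 fold change 0.87, SE 0.22, edgeR adjusted p = 0.00991), from 26, 53 and 34 counts in eGFPhi and 16, 13 and 19 counts in eGFPlo. The call depended on the tool: DESeq2 gave an adjusted p of 0.0877.

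Tlr7 (ENSMUSG00000044583, chromosome X, 167304929 to 167330558, minus strand), a sensor of single-stranded RNA, had 1.51, 0.922 and 1.54 CPM in eGFPhi, against 3.94, 3.01 and 3.32 CPM in eGFPlo. The highest eGFPhi library stayed below the lowest eGFPlo library. Tlr7 was 2.65-fold lower (log2 fold change -1.40, SE 0.24, edgeR adjusted p = 0.00138) and passed in 14 of 14 alternative settings that kept it. Tlr9 (ENSMUSG00000045322, chromosome 9, 106222598 to 106226883, plus strand), which binds unmethylated CpG DNA and whose upstream stretch is printed above, had 1.51, 1.23 and 0.976 CPM in eGFPhi and 2.06, 1.82 and 1.66 CPM in eGFPlo. The groups were close but did not overlap, and Tlr9 was 1.51-fold lower (log2 fold change -0.59, SE 0.22, edgeR adjusted p = 0.0438). That call sat at the threshold: Tlr9 passed in 4 of 14 alternative settings, and its adjusted p was 0.0604 with a replicate block and 0.259 with DESeq2. Leaving out any single library other than eGFPhi replicate 1 also lost it, with edgeR adjusted p-values of 0.0595 to 0.144.

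Tlr7 and Tlr9 are prominent in B cells and plasmacytoid dendritic cells, whose markers were checked beside them. All 10 B cell markers were lower in eGFPhi, with summed levels of 736 to 760 CPM in eGFPhi and 6090 to 6180 CPM in eGFPlo, and Vpreb3 was at 0 in all eGFPhi libraries. Of 7 plasmacytoid dendritic cell markers measured, 4 were lower and 1 was higher. Their sums overlapped, at 160 to 168 CPM in eGFPhi and 122, 188 and 188 CPM in eGFPlo, while the median log2 fold change of the 6 tested was -2.60. Klk1 was at 0 in all eGFPhi libraries and had counts in 1 eGFPlo library, 155 of them. The part of either cell type in the Tlr7 and Tlr9 differences was not tested. The log2 ratio of Tlr7 to Tlr9 averaged 0.08 ± 0.54 in eGFPhi and 0.89 ± 0.14 in eGFPlo (SD, n = 3 each). This ratio was lower in all 3 eGFPhi libraries (exact two-sided permutation p = 0.1; adjusted over 3 ratios, 0.15).

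Below the receptors, both adaptor genes were well measured, and Ticam1 passed the threshold. Ticam1 (ENSMUSG00000047123, chromosome 17, 56269319 to 56276786, minus strand), the adaptor of TLR3 and TLR4 that leads to type I interferon, had 19.1, 16.3 and 19.5 CPM in eGFPhi, against 14.9, 13.6 and 12.5 CPM in eGFPlo. The groups did not overlap, and Ticam1 rose 1.34-fold (log2 fold change 0.43, SE 0.11, edgeR adjusted p = 0.00932). With an assumed biological coefficient of variation of 0.2 in place of the estimated spread its adjusted p was 0.176.

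Myd88 (ENSMUSG00000032508, chromosome 9, 119335934 to 119341411, minus strand), the adaptor shared by most Toll-like receptors and by interleukin receptors, had 36.9, 36.5 and 36.3 CPM in eGFPhi and 33.3, 36.4 and 32.2 CPM in eGFPlo. The groups overlapped by 1 eGFPlo library. The log2 fold change of 0.11 (SE 0.06) did not pass (edgeR adjusted p = 0.155), although without eGFPlo replicate 2 it was 0.16 with an adjusted p of 0.0416. Irak4 (ENSMUSG00000059883, chromosome 15, 94543643 to 94581815, plus strand), the kinase that MYD88 recruits, had 23.7, 22.1 and 21.8 CPM in eGFPhi and 23.2, 22.9 and 25.7 CPM in eGFPlo, with overlapping groups (log2 fold change -0.09, SE 0.07, edgeR adjusted p = 0.291). In the libraries themselves the log2 ratio of Ticam1 to Myd88 averaged -1.0 ± 0.14 in eGFPhi and -1.32 ± 0.14 in eGFPlo (SD, n = 3 each). The ratio was higher in all 3 eGFPhi libraries, by 0.32 on the log2 scale, with an exact two-sided permutation p of 0.1 (adjusted over 3 ratios, 0.15). The fourth ratio planned, Tlr2 to Tlr1, could not be formed because Tlr1 had no count in 2 libraries. Exons of Myd88, Irak4 and Tlr3 overlap those of Acaa1a, Twf1 and Gm45542 on the opposite strand by 290, 395 and 381 bases, and since the strand setting of the counting is not given, reads there cannot be told apart.

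Levels of different genes were compared per length, as CPM per kilobase of merged annotated exons. In eGFPhi, Myd88 came first at 14.2 ± 0.131, followed by Ticam1 at 6.13 ± 0.582, Irak4 at 4.48 ± 0.202, Tlr2 at 3.05 ± 0.248 and Tlr4 at 1.14 ± 0.776 CPM per kilobase (SD, n = 3 each). Ranges of neighbours in this part of the order did not overlap. Tlr3, Tlr9, Tlr7 and Cd14, with means of 0.390, 0.356, 0.325 and 0.264 CPM per kilobase, overlapped from neighbour to neighbour, and Tlr1 was last, below every Cd14 library. In eGFPlo, Irak4 at 4.77 ± 0.303 and Ticam1 at 4.56 ± 0.410 CPM per kilobase overlapped below Myd88 at 13.2 ± 0.851. Tlr2, Cd14 and Tlr4 overlapped one another at means of 1.61, 1.36 and 1.33 CPM per kilobase, and Tlr7, Tlr9, Tlr3 and Tlr1 followed at 0.839, 0.530, 0.213 and 0.144. The eGFPlo ranges of Tlr3 and Tlr1 overlapped, at 0.174 to 0.263 and 0.102 to 0.182 CPM per kilobase. In the authors' FPKM, which use longer transcript sums for some genes, Tlr3 and Tlr7 stood at 0.172 and 0.115 in eGFPhi, below Tlr9 at 0.356 and Cd14 at 0.182. Cd14 took place 9 in eGFPhi and place 5 in eGFPlo by merged exons, and place 7 in eGFPhi and place 6 in eGFPlo by the authors' FPKM. The level per length of Myd88 exceeded that of 78.8% of tested genes in eGFPhi and 76.0% in eGFPlo, whereas Tlr7 exceeded 7.14% in eGFPhi and 18.1% in eGFPlo.

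**Figure D3:**
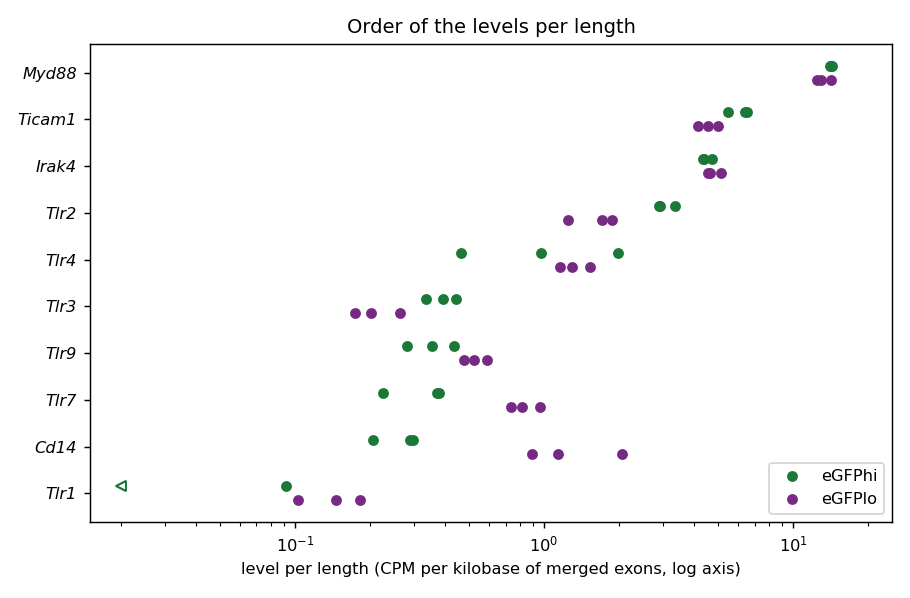
Level per length of each member in every library, as CPM per kilobase of merged exons on a log axis, with eGFPhi in green and eGFPlo in purple and members ordered by their eGFPhi mean. The open triangle marks the 2 eGFPhi libraries without a Tlr1 count, which a log axis cannot show. Myd88 leads in both groups, and Cd14 and Tlr7 lie further to the right in eGFPlo.

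The rest of the pathway was read from 5 lists of 76 genes, of which 72 were found and 63 tested. Of these, 21 rose and 29 fell, so 79.4% passed, against 64.0% of all tested genes. Their median log2 fold change was -0.13. When the coefficient of variation was set to 0.2 instead of estimated, 26 of them passed, 7 upward and 19 downward, and 6619 of all 18081 genes did. With at least 5 CPM required in 3 libraries, 45 of 57 listed genes passed, and 8413 of all 12478 genes did. Ly96, Tlr12, Ccl5 and Il10 were kept for testing through their eGFPlo libraries alone, and Tlr13 through its eGFPhi libraries alone. The lists were chosen with earlier results of these data known, so these shares are a description and not a test. The genes named from each list are those past the threshold with the smallest p and a mean of at least 1 CPM, at most 4 a list. Of the genes so named, Hsp90b1, Slc15a4, Irf5, Icam1 and Dusp1 also have exon bases that overlap another gene on the opposite strand. Hsp90b1 shares a further 217 exon bases on the same strand with Gm15344 and Gm25745.

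Most cofactors and transport proteins of the receptors were lower in eGFPhi. Among the 8 tested there were 7 that fell and 1 that rose, where 31.7% of all tested genes fell and 32.3% rose, and the list's median was -0.74 on the log2 scale. All 10 B cell markers and all 8 granulocyte-monocyte progenitor markers, whose sums are given above, were lower in the same eGFPhi libraries, and their part in this count was not tested. Hsp90b1, the endoplasmic reticulum chaperone that folds Toll-like receptors and many other proteins, was at 487, 485 and 467 CPM in eGFPhi and 953, 987 and 969 CPM in eGFPlo (2.02-fold lower, edgeR adjusted p = 9.12e-08). Unc93b1, which carries nucleic acid receptors to endosomes, was at 46.5, 50.8 and 50.6 CPM in eGFPhi and 91.9, 93.8 and 80.4 CPM in eGFPlo (1.79-fold lower, edgeR adjusted p = 3.19e-05). The libraries of the groups did not overlap for either gene. Slc15a4, an endolysosomal transporter needed for TLR7 and TLR9 signalling, was 1.57-fold lower at 14.7 ± 0.105 CPM in eGFPhi and 23.0 ± 0.512 CPM in eGFPlo. Ly86, whose product pairs with the receptor-like protein CD180, was 6.47-fold lower at 1.04 ± 0.361 CPM in eGFPhi and 7.11 ± 1.70 CPM in eGFPlo. Tlr3, whose product also travels with UNC93B1, rose in the libraries where Unc93b1, Tlr7 and Tlr9 fell. Ly96, whose product binds lipopolysaccharide on TLR4, was chosen after its values were seen. It had 6, 9 and 0 counts in eGFPhi and 16, 17 and 13 counts in eGFPlo (log2 fold change -1.96, SE 0.66, edgeR adjusted p = 0.0329). The filter on low counts kept Ly96 through its eGFPlo libraries alone.

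Of the 6 further Toll-like receptors, 3 were tested. Tlr12, a mouse receptor for a protozoan protein, had 0.712, 0.499 and 0.514 CPM in eGFPhi and 5.14, 4.82 and 3.82 CPM in eGFPlo. It was 8.17-fold lower (edgeR adjusted p = 1.81e-05), and its eGFPhi libraries alone would not have passed the filter on low counts. Tlr13, a mouse receptor for bacterial ribosomal RNA, had 2.05, 0.999 and 1.59 CPM in eGFPhi and 0.771, 0.629 and 0.443 CPM in eGFPlo, and was 2.45-fold higher (edgeR adjusted p = 0.015). Its eGFPlo libraries, with 9, 9 and 8 counts, would not have passed the filter alone, so its being tested depended on the group where it was high. The changes of Tlr12 and Tlr13 pointed in opposite directions, as those of Tlr3 and Tlr7 did. The filter removed Tlr5, Tlr8 and Tlr11, which are named here with their values known. Tlr11 had no count in eGFPhi and 11 in eGFPlo. Its pooled eGFPlo level was 4.72-fold that of a floor of 3 counts over the eGFPhi group, with the counting error of the 11 left out. Tlr5 had 2, 11 and 0 counts in eGFPhi and none in eGFPlo.

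**Figure D4:**
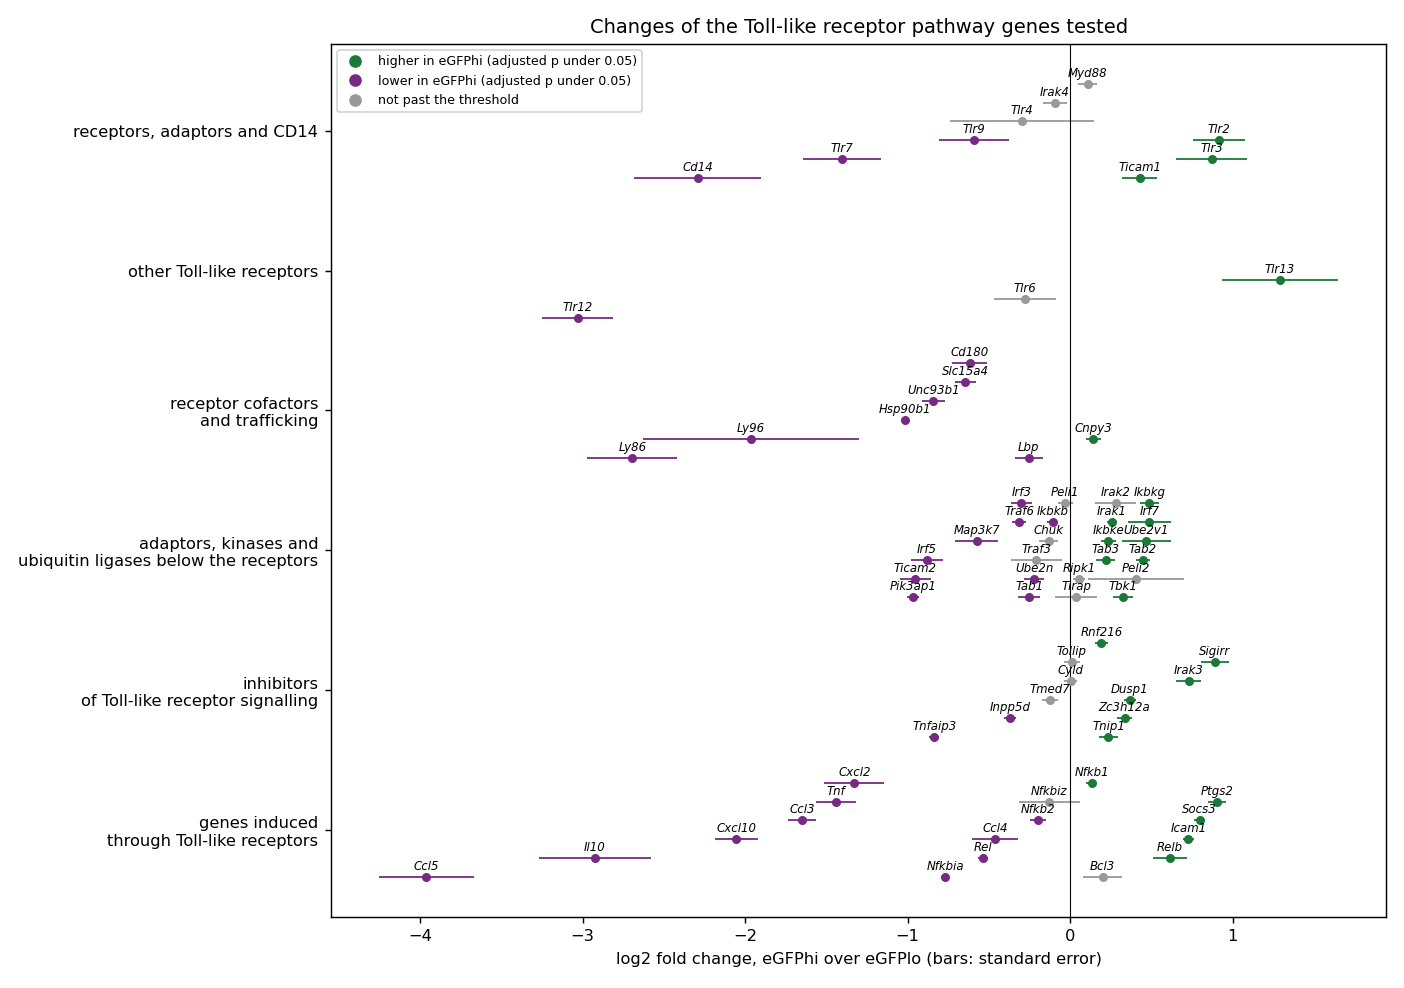
Log2 fold change, eGFPhi over eGFPlo, of each tested member (top row) and of the tested genes of the 5 pathway lists, with bars for the standard error. Green marks genes that passed as higher in eGFPhi, purple those that passed as lower and grey the rest. Of 8 tested cofactors 7 lie left of 0, and the induced genes reach from -3.96 for Ccl5 to 0.90 for Ptgs2. The filter on low counts kept Ccl5 through its eGFPlo libraries alone.

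Adaptors, kinases and ubiquitin ligases below the receptors moved in both directions: of 24 tested, 8 were higher and 9 lower, near the 32.3% and 31.7% of all tested genes, and the median log2 fold change was 0.00. Pik3ap1, an adaptor that links these receptors to phosphoinositide kinase, was 1.96-fold lower at 56.4 ± 1.81 CPM in eGFPhi and 110.5 ± 1.75 CPM in eGFPlo (edgeR adjusted p = 7.87e-07). Ticam2, which brings TRIF to TLR4, was 1.94-fold lower at 8.66 ± 0.727 CPM in eGFPhi and 16.9 ± 0.943 CPM in eGFPlo (edgeR adjusted p = 9.90e-05). Its change had the opposite sign to that of Ticam1. Ticam2 shares 838 exon bases on the same strand with Tmed7, which averaged 83.1 CPM in eGFPhi and 90.6 CPM in eGFPlo, so reads there cannot be assigned by strand. The transcription factor gene Irf5 was 1.84-fold lower at 11.3 ± 1.28 CPM in eGFPhi and 20.7 ± 0.955 CPM in eGFPlo. Tab2, a ubiquitin-binding partner of the kinase TAK1, was 1.36-fold higher at 165 ± 1.24 CPM in eGFPhi and 121 ± 6.65 CPM in eGFPlo.

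Of 11 tested inhibitors of the pathway, 6 were higher and 2 lower, with a median log2 fold change of 0.19. Of all tested genes, 32.3% were higher, 31.7% were lower and 64.0% passed in either direction. Sigirr, a receptor that dampens Toll-like receptor signals, had 19.1, 20.1 and 20.0 CPM in eGFPhi and 9.59, 11.3 and 11.0 CPM in eGFPlo (1.85-fold higher, edgeR adjusted p = 8.28e-05). Dusp1, a phosphatase of MAP kinases, was 1.29-fold higher at 333 ± 3.31 CPM in eGFPhi and 258 ± 12.5 CPM in eGFPlo. Tnfaip3, the ubiquitin-editing inhibitor A20, had 137, 139 and 139 CPM in eGFPhi and 244, 255 and 241 CPM in eGFPlo (1.79-fold lower, edgeR adjusted p = 5.12e-07). Tnfaip3 is itself induced by NF-kB. The phosphatase gene Inpp5d was 1.29-fold lower at 219 ± 8.67 CPM in eGFPhi and 283 ± 9.14 CPM in eGFPlo.

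Among 17 tested genes that Toll-like receptor signals induce, 10 were lower and 5 higher, where 31.7% of all tested genes were lower and 32.3% higher. The median log2 fold change of the 17 was -0.46. Ccl5 and Il10, both among the 10 lower, were kept by the filter on low counts through their eGFPlo libraries alone. Nfkbia, the NF-kB inhibitor, had 125, 129 and 128 CPM in eGFPhi and 216, 219 and 215 CPM in eGFPlo (1.70-fold lower, edgeR adjusted p = 4.14e-07), and the NF-kB subunit gene Rel was 1.45-fold lower at 130 ± 2.65 CPM in eGFPhi and 189 ± 0.876 CPM in eGFPlo. Socs3, a cytokine signalling inhibitor, had 170, 180 and 171 CPM in eGFPhi and 100, 98.5 and 102 CPM in eGFPlo (1.74-fold higher, edgeR adjusted p = 1.23e-06). The adhesion molecule gene Icam1 was 1.65-fold higher at 87.5 ± 1.12 CPM in eGFPhi and 52.9 ± 0.670 CPM in eGFPlo. Nfkbia fell and Icam1 rose, and both are known targets of NF-kB, whose part in these changes was not tested. The cytokine gene Il6, chosen after its values were seen, had 5, 18 and 12 counts in eGFPhi and none in eGFPlo. Its pooled eGFPhi level was 9.06-fold that of 3 counts over the eGFPlo group, with the counting error of the eGFPhi counts left out. Cxcl1, a chemokine gene chosen the same way, had no count in eGFPhi and 2, 7 and 8 counts in eGFPlo. Its pooled eGFPlo level was, in the same way, 7.30-fold that of 3 counts over the eGFPhi group.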

How the data were processed

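Per the labels' protocols, poly-A RNA (integrity number over 7.0) went into stranded paired-end libraries. CASAVA 1.8, HISAT2, StringTie and edgeR, and the builds hg38 and GRCm38, are named without roles in the submitters' processing notes; no source used here gives the counter, its strand setting or its treatment of shared reads. The deposited table has read counts per gene, per the file headers, taken as raw, and FPKM values by the authors. Of its genes, 26710 matched GENCODE M21 identifiers and 26471 its coordinates on GRCm38. The FPKM length equalled the summed distinct exons within 0.5% for 98.2% of matched genes, which counts shared exon bases more than once, so levels per length used merged exons.

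The main tests used edgeR 4.0.16 under R 4.3.3: filterByExpr (minimum count 10, minimum total 15) kept 18081 genes, with TMM factors and quasi-likelihood tests on group. The SE is the absolute log2 fold change over the square root of F. Permutation p-values for members used log2 of CPM plus 0.1. Across the libraries, of 11221070 to 26058391 counts, 3 counts are worth 0.115 to 0.267 CPM. The interval for Tlr1 covers counting error only. A floor of 3 counts allows for counting error in the group at 0 but not in the other group, whose counts were taken as exact. Between libraries of a group the median chi-square per gene was 0.714 to 0.824, where sampling noise gives 0.455. Libraries thus differed by more than counting noise and were each counted once, which does not show that they came from separate animals. Other settings tried were RLE factors, upper-quartile factors, omission of the filter, a floor of 5 CPM in 3 libraries, a fixed coefficient of variation of 0.2 (likelihood ratio test), a replicate block, DESeq2 1.42.0, limma 3.58.1 after voom or on log2 of FPKM plus 1, and removal of each library in turn. The pipeline was tested on simulated data. Members, lists and alternatives were chosen with earlier results of these data known. Named genes were the members, Trim47 and, from each pathway list, up to 4 genes past the threshold with a mean of at least 1 CPM, by smallest p; others are named as chosen with their values known. Promoter sequences come from RefSeq on GRCm38.p6. The motif letters were a single fixed spelling of each textbook site and do not cover its variants.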

Additional observations from a re-analysis of the deposited data

How the results depend on the processing

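Tlr2 (15 of 15 settings), Tlr7 and Cd14 (14 of 14 that kept them) stayed past the threshold in one direction, and Irak4 (0 of 15) stayed short of it. In the main fit the filter kept Cd14 through its eGFPlo libraries alone. Tlr9 was past it in 4 of 14: its log2 fold change was -0.57 with upper-quartile factors (adjusted p = 0.0507), -0.57 without a filter (0.0595), -0.59 with a replicate block (0.0604), -0.59 with an assumed coefficient of variation of 0.2 (0.165) and -0.59 with DESeq2 (0.259). Ticam1 was at 0.43 with that coefficient (adjusted p = 0.176) and Tlr3 at 0.87 with DESeq2 (0.0877). The causes were not tested, except that the assumed coefficient exceeds the estimated common value of 0.0941.

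Leaving out one library gave log2 fold changes of -0.71 to -0.44 for Tlr9, 0.064 to 0.16 for Myd88 and -0.86 to 0.10 for Tlr4, whose sign turned without eGFPhi replicate 3 (0.10). With 5 CPM required in 3 libraries, 5 members were tested and 2 passed, because Tlr3, Tlr7, Tlr9 and Cd14 were not kept. With the assumed coefficient 6619 genes passed in all, 26 of them on the pathway lists. Without a filter Tlr1 had a log2 fold change of -2.11. The replicate numbers are not said to pair libraries, and residuals of same-numbered libraries did not correlate (r = -0.0133, 0.000555 and -0.0108); the replicate block gave 10965 genes and 5 members past the threshold. The order of the less abundant receptors also depended on whether merged exons or the authors' FPKM set the length. Depth limits Tlr1, Cd14, Tlr3, Tlr7 and Tlr9, with at most 60 counts in a library.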
